A study of Mus musculus with 6 samples.

Results

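The 61 genes described here are the enzymes and proteins that handle glutathione, thioredoxin and peroxides, with the superoxide dismutases *Sod1* and *Sod3*, selenoprotein P and the regulators NRF2 and KEAP1. They were chosen by gene symbol, by the family prefixes *Gst*, *Mgst*, *Gpx*, *Ggt*, *Prdx*, *Txnrd* and *Glrx* and by single symbols such as *Gclc*, *Gsr*, *Txn1*, *Srxn1*, *Sod1*, *Sepp1* and *Nfe2l2*, from a table of 23420 genes. Earlier results of these data were known at that choice. The RNA came from whole uteri of C57BL/6J mice aged 8 weeks at pseudopregnancy day (PPD) 4.5, after mating with vasectomized males. Control females were *Foxo1f/f*, with floxed *Foxo1* and no Cre. Knock-out females were PgrCre/+ *Foxo1f/f*, written *Foxo1d/d* here, in which Cre from the *Pgr* locus removes the floxed second coding exon of *Foxo1*. Each genotype had 3 libraries and each library was made from a pool of 2 females, so no value belongs to a single mouse.

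The model has limits. Cre from the *Pgr* locus acts in cells that express the progesterone receptor (PGR), in the uterus and also in the pituitary, the granulosa cells of the ovary and the mammary gland, and the deletion is not timed to adulthood. Blood vessels keep FOXO1. In whole uterine RNA, fewer cells of a type and less RNA per cell cannot be told apart.

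Cells remove hydrogen peroxide and lipid peroxides with glutathione peroxidases, which spend reduced glutathione, and with peroxiredoxins, which spend reduced thioredoxin. Glutathione reductase and the thioredoxin reductases restore both donors with NADPH, while glutathione S-transferases join glutathione to reactive compounds so that they can be exported. NRF2, which KEAP1 marks for degradation, activates many of these genes through the antioxidant response element, FOXO factors are known activators of other antioxidant genes, and peroxidases of this group are known from the endometrium and the decidua.

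The values are the authors' mean raw count of each gene in each genotype. A library held a mean of 26125014 counts in control and 27257963 in knock-out uteri. The log2 ratio of a gene compares knock-out with control, each mean count being raised by a pseudocount of 1 and scaled to the summed mean counts of all genes in that genotype. The deposited values give no spread between pools, so nothing was tested, and a gene was called higher or lower only where its ratio passed 1.5-fold and its mean count over both genotypes was at least 10. The 95% intervals are Wilson intervals of the summed counts, and they cover counting error only. *Foxo1*, whose counts cover the whole gene and not the floxed exon alone, had the authors' mean count of 3941 in control and 1456 in knock-out uteri, 2.82-fold lower (log2 ratio -1.50, 95% counting interval -1.55 to -1.45).

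Of the 61 genes, 56 had a mean count of at least 10. Of these, 4 were higher in *Foxo1d/d* (*Gsta2*, *Gstm2*, *Mgst2* and *Gsr*), 1 was lower (*Gpx3*) and 51 stayed within 1.5-fold. The same fold was passed upward by 5.43% and downward by 3.51% of all 15696 genes that met this minimum, against 7.14% and 1.79% of these 56. The share of called genes was therefore near that of all genes in both directions. The median log2 ratio was 0.10 over the 56 genes and 0.02 over all genes, and the median size of the ratio without its sign was 0.13 and 0.14. The ratio lay above 0 for 35 genes (62.5%, against 55.1% of all genes) and below 0 for 21, with *Ggt1*, *Glrx2* and *Prdx5* so near 0 that another scaling or pseudocount gave them the other sign. Counting error left 0 outside the interval for 31 genes above it and 6 below it. No such count over all genes stands beside these numbers, so they are not read as particular to these genes. The median over the 56 genes of the mean count in controls was 1258. The plot of cumulative shares shows that the curve of these genes runs close to that of all genes past 1.5-fold and to its right in between. At a log2 ratio of 0.32, 23.2% of these genes and 12.5% of all genes passed upward. Downward, it was 3.57% and 8.996%.

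**Figure D1:**
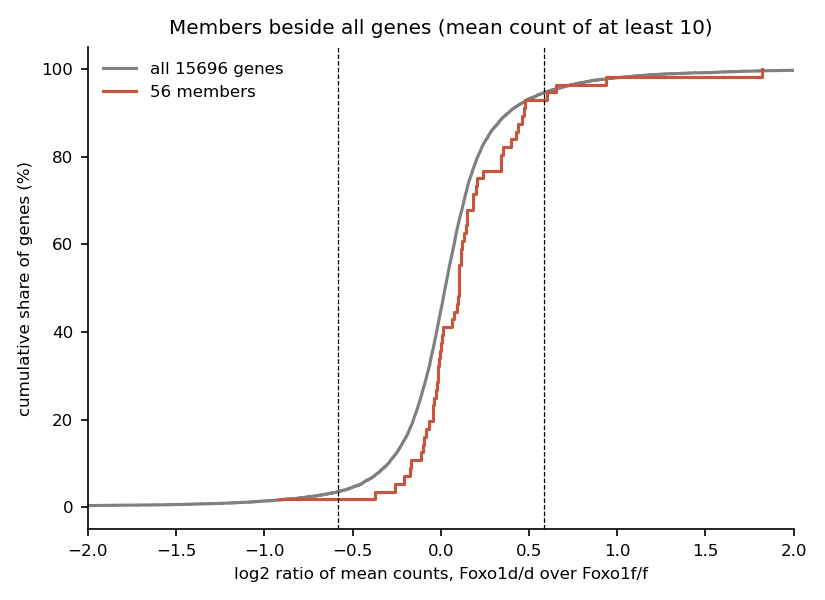
Cumulative share of genes (percent, vertical axis) by log2 ratio of mean counts, *Foxo1d/d* over *Foxo1f/f* (horizontal axis, shown from -2 to 2), for the 56 genes of glutathione, thioredoxin and peroxide handling (red) and for all 15696 genes (grey) with a mean count of at least 10. Dashed lines mark 1.5-fold, passed by 5 of the 56 genes.

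The 5 genes under the count minimum were *Gsta1*, *Gpx5* and *Gpx6*, listed at 0 in both genotypes, *Gstm3* and *Gstt4*. The 3 libraries of a genotype together held 0 counts of *Gstm3* in control and 5 in knock-out uteri, and 13 and 11 counts of *Gstt4*. A count of 0 allows up to 0.0383 CPM (counts scaled to the genotype total) in control and 0.0367 in knock-out uteri, taking 3 counts over the libraries of a genotype as the limit. This limit does not bound *Gsta1*, since 16.7% of its 90-base stretches were unique to it and shared reads may go uncounted. In the table as a whole, 3831 genes were listed at 0 in both genotypes.

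**Figure D2:**
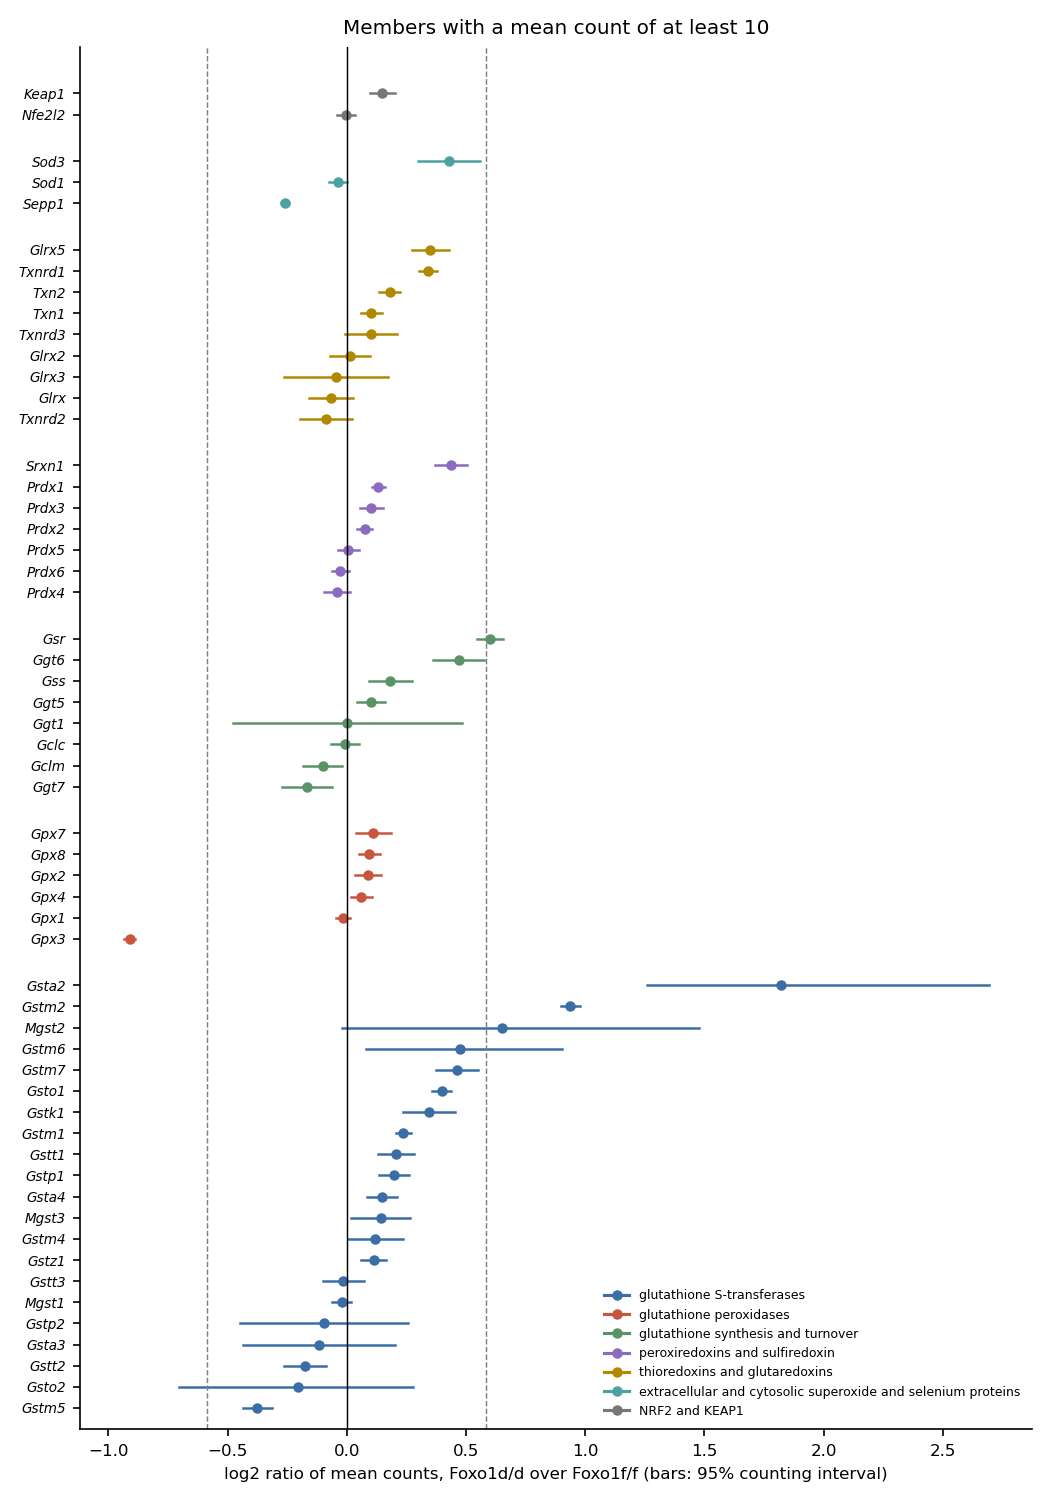
Log2 ratio of mean counts, *Foxo1d/d* over *Foxo1f/f* (horizontal axis), of the 56 genes that met the count minimum of 10, grouped by role (colour). Points are ratios and bars are 95% counting intervals, which leave out differences between pools. Dashed lines mark 1.5-fold, and *Gpx3* is the only point below the lower line.

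The glutathione peroxidases fall into enzymes that carry selenocysteine and enzymes that carry cysteine at the catalytic position. The codon that sets this is shown in capitals in the following stretches of GENCODE transcripts, since TGA is read as selenocysteine in *Gpx1* to *Gpx4* and the others have a cysteine codon, TGC or TGT.
Gpx1: gtcgcgtctctcTGAggcaccacgatc
Gpx2: gtggcgtcactcTGAggaacaactacc
Gpx3: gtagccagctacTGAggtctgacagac
Gpx4: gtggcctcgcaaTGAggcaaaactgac
Gpx5: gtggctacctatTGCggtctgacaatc
Gpx6: gtggcatccttcTGTggcctgacagct
Gpx7: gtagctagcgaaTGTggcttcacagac
Gpx8: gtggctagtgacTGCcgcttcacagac
The codon separates the 8 genes into 4 of each kind, and *Gpx3*, the called gene, is of the selenocysteine kind together with *Gpx1*, *Gpx2* and *Gpx4*, which stayed within 1.5-fold.

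*Gpx3*, which encodes the secreted glutathione peroxidase of extracellular fluid, was the lower gene. The authors' mean count of *Gpx3* was 12157 in control and 6745 in knock-out uteri, which was 1.88-fold lower (log2 ratio -0.91, 95% counting interval -0.94 to -0.89). Its depth leaves little counting error, and all of its 90-base stretches were unique to the gene among GENCODE transcripts. Among the 15696 genes, 1.67% had a log2 ratio as low or lower. Of the 308 genes with at least the mean count of *Gpx3* over both genotypes, *Gpx3* included, 4 were called lower and 2 had a ratio as low as that of *Gpx3*. Per kilobase (kb) of transcript, the level of *Gpx3* was 292 CPM in *Foxo1f/f*, above the other glutathione peroxidases, and 155 in *Foxo1d/d*, below *Gpx1*.

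The other glutathione peroxidases with counts lay close to the median gene. *Gpx1*, the main cytosolic enzyme, had a level of 232 CPM per kb in control and 230 in knock-out uteri (log2 ratio -0.02). *Gpx8*, a membrane enzyme of the endoplasmic reticulum, had 91.8 and 98.0 on that scale (log2 ratio 0.10), and *Gpx4*, which reduces lipid peroxides within membranes, had 73.1 and 76.3 (log2 ratio 0.06). Of the stretches of *Gpx4*, 66.4% were unique to it, so part of its reads can be shared with near copies. The log2 ratios of *Gpx2*, the epithelial enzyme, and *Gpx7*, a further enzyme of the endoplasmic reticulum, were 0.09 and 0.11.

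Summed over the family, the level was 776 CPM per kb in control and 652 in knock-out uteri, a log2 ratio of -0.25. Without *Gpx3* the sums were 484 and 497, a log2 ratio of 0.04, so the family apart from *Gpx3* had near equal sums. *Gpx3* held 37.6% of the family sum in control and 23.8% in knock-out uteri, where *Gpx1* held the largest share, 35.2%. The bars of summed levels show a shorter *Gpx3* segment in the knock-out beneath segments of much the same height.

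**Figure D3:**
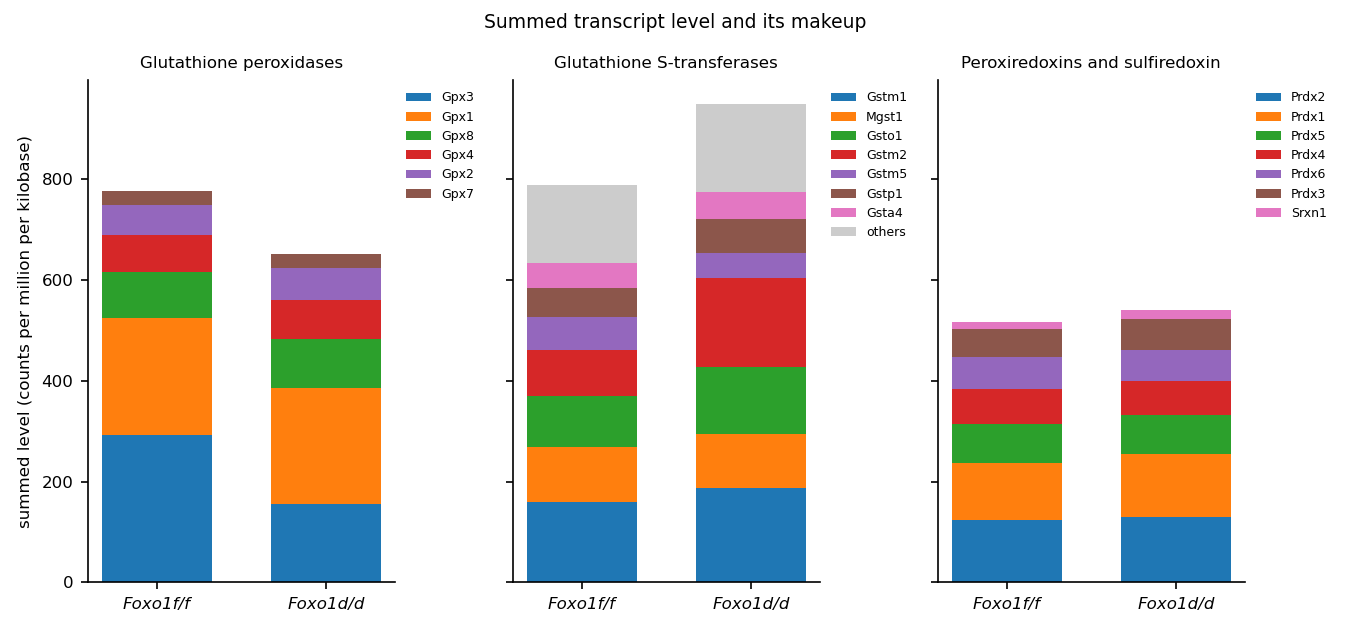
Summed transcript level (CPM per kb, vertical axis from 0) in *Foxo1f/f* and *Foxo1d/d*, for glutathione peroxidases, glutathione S-transferases and peroxiredoxins with sulfiredoxin. Segments are single genes, the 7 most abundant by name and the rest in grey; *Gpx3* has the smaller segment and *Gstm2* the larger one in *Foxo1d/d*.

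Of the glutathione S-transferases, 21 of 24 passed the count minimum, 3 were called higher (14.3%, against 5.43% of all genes), 0 were called lower (against 3.51%), and the median log2 ratio was 0.15. *Gstm2*, an enzyme of the cytosolic mu class, had the most counts of the called transferases. Its mean count was 2540 in control and 5072 in knock-out uteri, 1.91-fold higher (log2 ratio 0.94, 95% counting interval 0.90 to 0.98), and 98.4% of its stretches were unique. Of the 1622 genes with at least its mean count, *Gstm2* included, 27 were called higher and 13 had a ratio as high as that of *Gstm2*. The other 2 called genes rest on few counts. *Gsta2*, of the alpha class, had mean counts of 6.33 and 26.0 (log2 ratio 1.82, 95% counting interval 1.26 to 2.69), with 62.1% of its stretches unique to it. *Mgst2*, a membrane-bound enzyme, had mean counts of 7.33 and 12.7 (log2 ratio 0.65), and its counting interval of -0.02 to 1.48 holds 0.

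The most abundant transferases per length were *Gstm1*, *Mgst1* and *Gsto1* in *Foxo1f/f*. *Gstm1*, the main mu-class enzyme, had 159 CPM per kb in control and 187 in knock-out uteri (log2 ratio 0.24). *Mgst1*, of the endoplasmic reticulum and outer mitochondrial membrane, had 109 and 107 (log2 ratio -0.02). *Gsto1*, of the omega class, which also reduces mixed disulfides, had 101 and 134 (log2 ratio 0.40, 95% counting interval 0.36 to 0.44). *Gstm2* stood at 91.4 in *Foxo1f/f* and, at 175, came next to *Gstm1* in *Foxo1d/d*. The pi-class neighbours *Gstp1* and *Gstp2* had log2 ratios of 0.20 and -0.09, and they are uncertain one by one, since 45.2% and 34.6% of their stretches were unique. The family sum was 789 and 949 on this scale, a log2 ratio of 0.27, and without *Gstm2* it was 698 and 774, a log2 ratio of 0.15. *Gstm2* thus made up 83.5 of the difference in summed level, next to 32.2 for *Gsto1* and 28.4 for *Gstm1*, while the difference for *Gstm5* was -14.9.

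The mu-class genes are neighbours. By RefSeq gene positions on GRCm38, the 7 *Gstm* genes lie within 149 kilobases at chr3:107895854-108045179, in the order *Gstm5*, *Gstm7*, *Gstm6*, *Gstm3*, *Gstm2*, *Gstm1* and *Gstm4*. Their ratios differed along the cluster. *Gstm5*, at one end, had a log2 ratio of -0.38, with a 95% counting interval from -0.44 to -0.31, and its neighbour *Gstm7* had 0.46 (0.37 to 0.55). *Gstm6*, whose mean count in controls was 26.3, had 0.48 (0.08 to 0.90), and *Gstm4*, at the other end, had 0.12 (0.00 to 0.24). The counting intervals of *Gstm5*, *Gstm7*, *Gstm2* and *Gstm1* do not overlap each other. They leave out differences between pools, so this does not show that the genes differ beyond that spread. The cluster as a whole had 340 CPM per kb in control and 444 in knock-out uteri, and the plot in chromosomal order shows *Gstm2* as its highest ratio and *Gstm5* as its lowest.

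**Figure D4:**
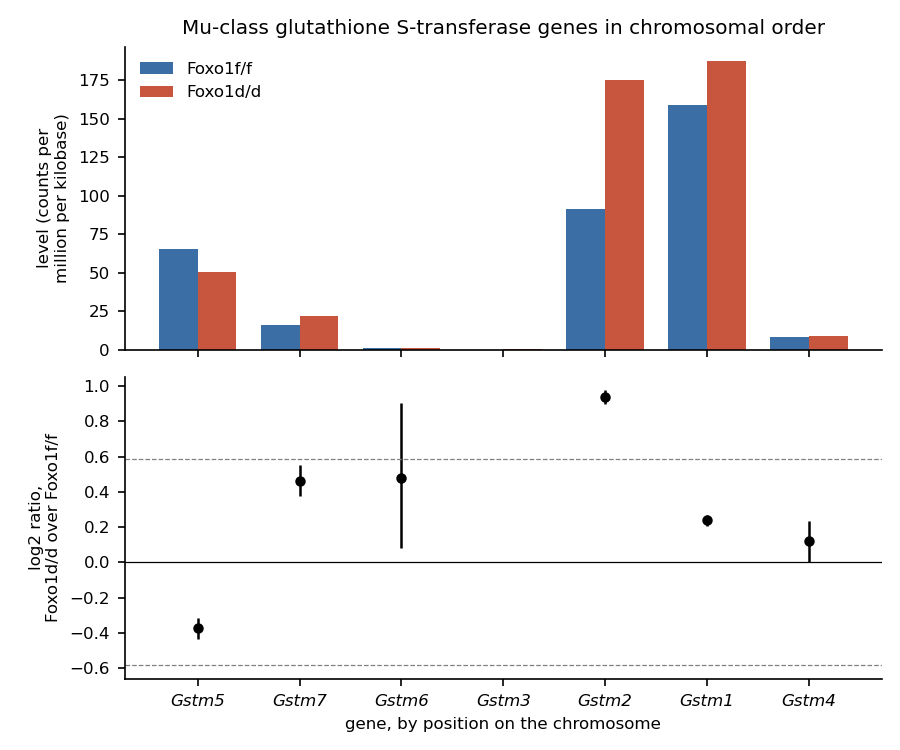
The 7 mu-class genes in chromosomal order (horizontal axis). Upper panel, level in CPM per kb in *Foxo1f/f* (blue) and *Foxo1d/d* (red); lower panel, log2 ratio of knock-out over control with 95% counting intervals and dashed lines at 1.5-fold. *Gstm3*, with 0 counts in *Foxo1f/f*, has no ratio drawn, and the point of *Gstm2* is the only one past a dashed line.

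The 250 bases before the annotated start of *Gpx3* and of *Gstm2*, the called genes with the most counts in either direction, are given from RefSeq on GRCm38.p6. That of *Gpx3* is chr11:54902604-54902853 on the plus strand and that of *Gstm2* is chr3:107986421-107986670 on the minus strand.
Gpx3: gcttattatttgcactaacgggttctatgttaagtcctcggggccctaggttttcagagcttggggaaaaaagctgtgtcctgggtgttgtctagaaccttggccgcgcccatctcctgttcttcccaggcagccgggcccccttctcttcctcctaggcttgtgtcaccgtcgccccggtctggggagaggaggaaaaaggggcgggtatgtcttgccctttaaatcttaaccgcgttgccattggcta
Gstm2: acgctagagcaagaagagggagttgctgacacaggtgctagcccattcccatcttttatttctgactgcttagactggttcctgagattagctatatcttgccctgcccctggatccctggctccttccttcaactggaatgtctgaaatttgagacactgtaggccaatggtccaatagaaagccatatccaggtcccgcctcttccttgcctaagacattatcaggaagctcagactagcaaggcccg
Neither window, counted with 50 further bases after the start, holds TGACNNNGC, the core of the antioxidant response element, or the forkhead sequence GTAAACA on either strand, so no base is in capitals. This says only that these letters are not in these windows.

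Glutathione is made by glutamate-cysteine ligase, with the catalytic subunit *Gclc* and the modifier *Gclm*, and by glutathione synthetase, *Gss*. Their log2 ratios were -0.01, -0.10 and 0.18, and none passed 1.5-fold. *Gsr*, glutathione reductase, which returns oxidized glutathione to its reduced form, was the called gene of the 8 in synthesis and turnover. Its mean count was 1392 in control and 2203 in knock-out uteri, 1.52-fold higher (log2 ratio 0.60, 95% counting interval 0.54 to 0.66), so the interval reaches to both sides of the log2 threshold of 0.58. With ratios scaled on the median gene or on the upper quartile, *Gsr* was no longer past that threshold. Per length, *Gsr* had 19.9 and 30.2 CPM per kb, ahead of *Gclc* at 17.4 in both genotypes and *Gss* at 12.3 and 13.9.

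Gamma-glutamyl transferases are known for breaking down extracellular glutathione at the cell surface. That activity was not measured here and need not hold for each member of the family. *Ggt6* had a log2 ratio of 0.47 (95% counting interval 0.36 to 0.58), *Ggt5* 0.10, *Ggt1* 0.00 and *Ggt7* -0.17. The summed level of synthesis and turnover was 83.7 CPM per kb in control and 98.4 in knock-out uteri, and *Gsr* held 23.8% and 30.7% of it.

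All 7 genes of the peroxiredoxins and sulfiredoxin had counts and 0 passed 1.5-fold. The 6 peroxiredoxins had log2 ratios from -0.04 for *Prdx4* to 0.13 for *Prdx1*. Per length, *Prdx2* and *Prdx1*, both cytosolic, led with 123 and 113 CPM per kb in *Foxo1f/f* and 130 and 124 in *Foxo1d/d*, and *Prdx5*, found in mitochondria, peroxisomes and cytosol, had 77.2 and 77.5. The mitochondrial *Prdx3* had a log2 ratio of 0.10 and *Prdx6*, which uses glutathione, -0.03. *Srxn1*, sulfiredoxin, which repairs overoxidized peroxiredoxins, stood apart with mean counts of 1019 and 1439 (log2 ratio 0.44, 95% counting interval 0.37 to 0.50). The summed level was 517 and 540 CPM per kb, a log2 ratio of 0.06.

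None of the 9 thioredoxin and glutaredoxin genes passed 1.5-fold, and their median log2 ratio was 0.10. *Txn1*, cytosolic thioredoxin, had 96.0 CPM per kb in control and 103 in knock-out uteri, and *Txn2*, its mitochondrial relative, had 72.1 and 81.7. *Txnrd1*, the cytosolic reductase that restores thioredoxin, had mean counts of 3338 and 4414 (log2 ratio 0.34, 95% counting interval 0.30 to 0.38). The mitochondrial reductase *Txnrd2* had a log2 ratio of -0.09 and *Txnrd3* 0.10. Among the glutaredoxins, *Glrx5*, which serves iron-sulfur cluster assembly in mitochondria, had a log2 ratio of 0.35 (95% counting interval 0.27 to 0.43), while *Glrx*, *Glrx2* and *Glrx3* lay between -0.07 and 0.01.

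Within 1.5-fold, and so not called, 9 further genes had ratios of 1.27-fold to 1.41-fold, which were *Ggt6*, *Glrx5*, *Gstk1*, *Gstm6*, *Gstm7*, *Gsto1*, *Sod3*, *Srxn1* and *Txnrd1*. At a lower threshold, 0.32 on the log2 scale, 13 of the 56 genes in all passed upward (23.2%, against 12.5% of all genes) and 2, *Gpx3* and *Gstm5*, downward (3.57%, against 8.996% of all genes). *Gstk1* and *Txnrd1* did not reach it with ratios scaled on the median gene, and *Txnrd1* also on the upper quartile.

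Selenoprotein P, here *Sepp1* and now named *Selenop*, carries selenium in plasma and between cells. It had the highest level per length of the 61 genes, 357 CPM per kb in control and 298 in knock-out uteri, from mean counts of 19996 and 17407 (log2 ratio -0.26, 95% counting interval -0.28 to -0.24). Of the 90-base stretches of *Sepp1*, 83.0% were unique to it, so some shared reads may go uncounted. *Sod1*, the cytosolic superoxide dismutase, had 214 and 209 on the per-length scale (log2 ratio -0.04). *Sod3*, the extracellular enzyme, had 2.77 and 3.73 (log2 ratio 0.43, 95% counting interval 0.30 to 0.56). *Sepp1* and *Gpx3* are both secreted selenoproteins and both had negative ratios, the latter past 1.5-fold. By the GENCODE annotation, 8 of the 61 genes carry selenocysteine, with 10 sites annotated in *Sepp1* and 1 in each of *Gpx1* to *Gpx4* and *Txnrd1* to *Txnrd3*. Of these 8, 4 had ratios above 0 and 4 below, and their summed level was 1061 and 878 CPM per kb. Without *Gpx3* and *Sepp1*, the sum of the other 6 was 412 and 425 CPM per kb.

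*Nfe2l2*, which encodes NRF2, had mean counts of 3718 and 3868 (log2 ratio 0.00), and *Keap1* had 1808 and 2092 (log2 ratio 0.15). RefSeq promoter windows, from 250 bases before to 50 after a start, were found for 54 of the 61 genes, in 77 windows. The core TGACNNNGC was present on either strand in 13 of the 77 windows, 16.9%, and in 12.4% of all 32851 windows. These windows belong to 11 genes, and 7 of them are shown with the core in capitals, on the strand of the gene, so that the core may read as its reverse complement.
Txnrd1: tggatttttGCTTTGTCAttctgacac
Prdx1: agggaaagcGCTGAGTCAtcccccgta
Gclm: ctcccgggcGCACCGTCAactctcacg
Gstm7: ctgaagaccTGACAAAGCgaagccaat
Gstm5: accgcccacTGACCACGCggagggcgg
Nfe2l2: cagcccaccTGACTCCGCcatgccccg
Srxn1: cagtgggcaGCTAGGTCAgagtgagac
Positions of the core on GRCm38.p6 are counted from the start that its window was drawn around, and a gene can have several such starts. They are -133 bases in *Prdx1*, -42 in *Gstm5* and -240 in *Nfe2l2*, and 29 bases after the start in *Srxn1*. In *Txnrd1* (-92), *Gclm* (-134) and *Gstm7* (-129), the start used lies inside the annotated gene. Of the 11 genes with the core, 4 had a ratio above 0 and 7 below, 0 passed 1.5-fold, and the median log2 ratio was 0.00. Over all genes, 55.1% had a ratio above 0, 5.43% were called higher and 3.51% lower, so 0 of 11 says little. Of the 38 genes with counts and a window without the core, 3 were called higher and 1 lower. Of these 38, 27 had a ratio above 0 and the median was 0.10. Genes with the core thus had ratios on both sides of 0, from -0.38 for *Gstm5* to 0.46 for *Gstm7*. A match is a run of letters and not a measured binding site.

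The forkhead sequence GTAAACA was found in 2 of the 77 windows, 2.60%, and in 3.65% of all windows. The genes were *Glrx2*, with a log2 ratio of 0.01, and *Sepp1*. The 250 bases before a *Sepp1* start, at chr15:3270727-3270976 on the plus strand of GRCm38.p6, are shown. The match, 24 bases before that start, is in capitals. The annotated gene begins at 3270767, so this start and the match both lie inside the gene.
Sepp1: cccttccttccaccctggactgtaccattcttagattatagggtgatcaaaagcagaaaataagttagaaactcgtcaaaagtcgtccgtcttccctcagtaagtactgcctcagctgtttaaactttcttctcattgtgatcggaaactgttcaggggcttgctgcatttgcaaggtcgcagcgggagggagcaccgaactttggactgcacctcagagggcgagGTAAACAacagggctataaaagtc
The 2 genes with the sequence lie at 0.01 and -0.26 on the log2 scale, neither past 1.5-fold.

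Summed over all 61 genes, the level was 3049 CPM per kb in control and 3089 in knock-out uteri, and the genes held 0.468% and 0.469% of all counts. The total was thus near equal. Of the genes past 1.5-fold, the difference in level per length, knock-out minus control, was -137 for *Gpx3* and 83.5 for *Gstm2*. Within 1.5-fold, it was -59.1 for *Sepp1*, 32.2 for *Gsto1* and 28.4 for *Gstm1*.

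The wider pathway was described by lists of other genes, whose counts stand beside 5.43% higher and 3.51% lower over all genes, and whose most abundant gene per length is that of the controls. Among 22 genes of glutathione supply and use, 4 were higher (18.2%) and 0 lower, with a median log2 ratio of 0.12. The higher genes were *Anpep*, an aminopeptidase that splits the cysteinylglycine left from glutathione (log2 ratio 1.06, mean counts 10227 and 22244), *Slc7a11*, the cystine importer (0.92), *Cbs*, which leads homocysteine to cysteine (0.84), and *Chac2*, which cleaves glutathione (0.62). *Glul*, glutamine synthetase, had the highest level per length of that list, 182 and 244 CPM per kb, and stayed within 1.5-fold. Of 10 genes of NADPH supply, the mitochondrial folate enzyme *Mthfd2* was higher (log2 ratio 1.07) and malic enzyme *Me1* lower (-0.86), with *Taldo1* the most abundant per length (0.23).

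Of 29 other genes of oxidant defence, 2 were higher and 1 lower. The metallothioneins *Mt2* and *Mt1*, which bind zinc and copper, had log2 ratios of 0.78 and 0.66, and *Sesn1*, a sestrin known as a FOXO target, had -0.65. The FOXO targets known best from other tissues, catalase (*Cat*) and the mitochondrial superoxide dismutase (*Sod2*), had -0.06 and 0.20. *Ftl1*, ferritin light chain and the most abundant per length, had 0.10. Of 21 genes of the NRF2 circuit with counts, 1 was higher (*Slc7a11*) and 3 were lower, which were the NRF2 relative *Nfe2l3* (-1.82, mean counts 505 and 149), *Me1* and the repressor *Bach2* (-0.80), and the median was -0.09. The circuit thus held genes past 1.5-fold in both directions.

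Of 21 other selenoprotein and selenium-handling genes with counts, 4 were higher (19.0%, against 5.43% of all genes) and 0 lower (against 3.51%), and the median was 0.13. They were *Dio2*, which activates thyroid hormone (log2 ratio 1.40), *Lrp2* (1.22) and *Lrp8* (1.18), which are known receptors for selenoprotein P among other ligands, and *Selenbp2*, a selenium-binding protein (0.92). *Sepw1*, the most abundant per length, had 0.00. Of 16 peroxide-producing genes with counts, such as the NADPH oxidases, 0 passed 1.5-fold, the median was 0.01 and *Maob*, monoamine oxidase B and the most abundant per length, had 0.02. Of 5 haem peroxidases with counts, *Lpo*, the peroxidase of secretions, was higher on few counts, 5 in control and 66 in knock-out uteri summed over 3 libraries (log2 ratio 3.05, 95% counting interval 2.39 to 4.93), *Mpo* was higher (0.90), and *Pxdn*, which crosslinks collagen of basement membranes, had -0.31. The strip plot of lists shows medians near 0 throughout, with single genes far to either side.

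**Figure D5:**
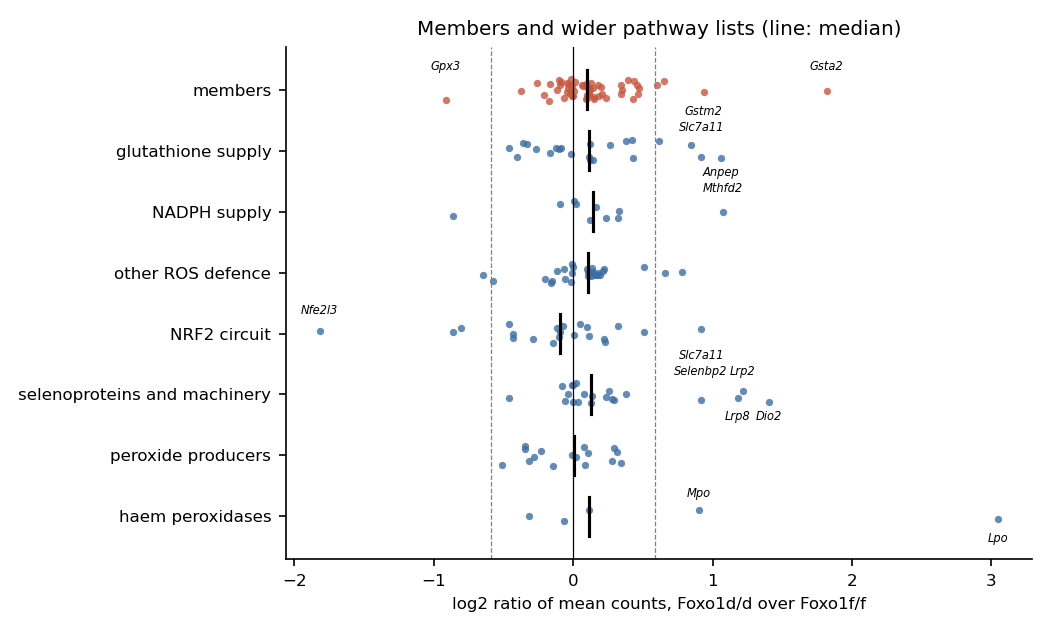
Log2 ratio of mean counts, *Foxo1d/d* over *Foxo1f/f* (horizontal axis), for the 56 genes of glutathione, thioredoxin and peroxide handling (members, red) and for lists of other genes of the pathway (blue), at a mean count of at least 10. Black lines are medians, from -0.09 to 0.14, dashed lines mark 1.5-fold, and genes past a log2 ratio of 0.9 in size are named.

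Markers of cell types were listed beside these values, and their part in the ratios was not tested. Over all genes, 55.1% had a ratio above 0, 5.43% were called higher and 3.51% lower. Sums of a list are in CPM and include its genes under the count minimum, and the most abundant gene is given per length. The tissue carried the defining genes of the uterus, with the authors' mean count of *Pgr* at 5469 and 6551. Of the 13 epithelial markers reported, 2 were higher (*Krt19*, log2 ratio 1.22, and *Elf3*, 0.86), 11 lay above 0, and the median was 0.29. Their sum was 1232 and 1396 CPM, and *Wfdc2* was the most abundant in both genotypes. Of 7 gland markers, 1 was higher (*Lif*, 0.99) and 3 were lower, *Spink3* (-4.70), *Ttr* (-1.31) and *Sult1d1* (-1.05). Their sum was 653 and 393 CPM, with *Spink3* the most abundant in controls and *Prom1* in the knock-out. The gland regulator *Foxa2* had mean counts of 280 and 300 (log2 ratio 0.04). Of the 7 gland markers, 5 lay below 0, and the median was -0.42. *Prom1* (-0.42) is in both the epithelial and the gland list.

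Of 13 stromal, 10 myometrial and 9 endothelial markers, 0 passed 1.5-fold. Of the stromal markers 10 lay below 0 (median -0.06), with a sum of 15579 and 15475 CPM and *Col3a1* the most abundant in both genotypes. All 10 myometrial markers lay below 0 (median -0.26), with a sum of 7728 and 6328 CPM and *Tagln* the most abundant in controls and *Acta2* in the knock-out. All 9 endothelial markers lay below 0 (median -0.21), with a sum of 1874 and 1587 CPM and *Egfl7* the most abundant in both genotypes. All 10 macrophage markers lay above 0 without passing 1.5-fold (median 0.26), with a sum of 770.0 and 916 CPM and *Lyz2* the most abundant in both genotypes. Markers of several cell types thus lay mostly on one side of 0, glands, stroma, muscle and vessels below it and the epithelial list and macrophages above it.

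Of 9 markers of T and NK cells, 3 were higher, *Cd8a* (1.94), *Cd3e* (1.09) and *Cd3g* (0.80), and 8 lay above 0 (median 0.38). Their sum was 159 and 200 CPM, with *Gzmb* the most abundant in controls and *Ncr1* in the knock-out. Of 10 adipocyte markers with counts, 7 were higher, among them *Cidec* (2.19), *Retn* (2.16), *Plin1* (2.10), *Cfd* (1.86), *Adipoq* (1.82) and *Fabp4* (1.71), and 1 was lower, *Pck1* (-0.72). Of these 10 markers, 8 lay above 0 (median 1.76), and the sum was 127 and 184 CPM, with *Lpl* the most abundant in controls and *Cfd* in the knock-out. Of 9 granulocyte markers, 3 had counts above the minimum, with *S100a9* (1.19) and *Mpo* (0.90) higher and *Prg2* lower (-0.69). The sum over all 9 was 3.07 and 4.63 CPM, with *Prg2* the most abundant in controls and *S100a9* in the knock-out.

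Of 8 erythroid markers, *Alas2* alone passed the count minimum and was higher, with mean counts of 147 and 403 (log2 ratio 1.39), and *Hba-a1*, *Hba-a2*, *Hbb-b1* and *Hbb-b2* were listed at 0 in both genotypes. Of the stretches of *Hba-a1* and *Hba-a2*, 41.1% and 22.8% were unique, so shared reads may go uncounted, and these zeros do not show that globin transcripts were absent. Red cells are rich in the proteins of *Gpx1* and *Prdx2*, whose transcripts had log2 ratios of -0.02 and 0.07. The part of red cells in these ratios was not tested. Of 6 mesothelial markers 0 passed 1.5-fold and 5 lay above 0 (median 0.25), with a sum of 220 and 206 CPM and *Wt1* the most abundant in both genotypes. Of 4 markers of ovary and oviduct with counts, *Foxj1* was higher on mean counts of 12.7 and 25.3 (log2 ratio 0.88), and the sum was 145 and 158 CPM, with *Ovgp1* the most abundant in both genotypes.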

How the data were processed

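Uterine RNA of 3 pools per genotype was sequenced. The authors trimmed the reads, mapped them with STAR, removed duplicates with Picard and counted reads per RefSeq gene with HTSeq, with no versions given in the sources used here. The study's methods name the build mm10 and the submitters' notes mm9, and the table holds no coordinates. The deposited table gives the authors' mean raw count per genotype, whose products with 3 are whole to within rounding for every gene. The authors' log2 CPM averaged over libraries, the authors' signed fold change, a score, and the authors' p-value and FDR from edgeR are deposited beside it. None of these comparison columns was used.

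Since the values are means, the planned edgeR test was not run, nor was any other test, SD or split. The ratios use a pseudocount of 1, totals of 78375043 and 81773890 summed counts, a mean count of at least 10 and a fold of 1.5. Folds of single genes were computed without the pseudocount. Levels were divided by the joined exon length of the gene's RefSeq-linked GENCODE vM21 transcripts. Shared reads were judged by exact 90-base stretches. Motifs were searched in RefSeq promoter windows, of which *Gclc*, *Ggt5*, *Gsr*, *Gsta4*, *Gstt2*, *Prdx6* and *Sod3* had none. A planned comparison of protein sequences was not run. Python 3.11.15, numpy 2.4.6, pandas 2.3.3, scipy 1.17.1 and matplotlib 3.10.9 were used. The ratio, its interval and the fold call were tested on simulated counts without differences between pools, and the other steps were not.

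The genes and lists were chosen with earlier results of these data known. Genes were named by rule, which took *Foxo1*, called genes, the 3 most abundant per length of each role, every gene of a small role, and up to 6 called genes and the most abundant gene of each other list. Other genes named singly were chosen after their values were seen. The result for 1 marker gene is not reported here, and its list was summed without it. The alternatives were another pseudocount, 2 other scalings, other count minimums and folds, and leaving out paralogs.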

Additional observations from a re-analysis of the deposited data

How the results depend on the processing

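With a pseudocount of 0.1 the counts of genes past 1.5-fold were again 4 higher and 1 lower, with 5.57% and 3.61% of all genes. Scaling on the median gene, a shift of -0.02 on the log2 scale, or on the upper quartile gave 3 higher and 1 lower, and left 0 higher genes in glutathione synthesis and turnover, since *Gsr* was then within 1.5-fold. Of all genes, 5.06% were then higher and 3.79% lower on the median gene, and 5.10% and 3.75% on the upper quartile. A mean count of at least 50 gave 2 higher (*Gsr* and *Gstm2*) and 1 lower among 50 genes, with 3.81% and 2.58% of all genes. No count minimum gave 5 higher, with *Gstm3*, and 1 lower among 61 genes, with 6.78% and 4.85% of all 23420 genes. A log2 threshold of 0.32 gave 13 higher and 2 lower, with 12.5% and 8.996% of all genes, and a fold of 2 gave 1 higher (*Gsta2*) and 0 lower, with 1.99% and 1.40%. Without the *Gsta*, *Gstm*, *Gstt* and *Gstp* paralogs, 2 were higher and 1 was lower of 42, beside 5.43% and 3.51% of all genes. Scaling on the median gene gave 2 lower genes in the list of other oxidant defence, as *Txnip*, chosen after its values were seen (log2 ratio -0.58), passed the fold. *Gpx3* was called in every alternative listed here except the fold of 2. Of 168 values of single genes under the alternatives, 2 moved beyond their counting interval, both of *Sepp1* (-0.29 and -0.28), and 0 called genes took the other sign.

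No paired analysis was possible because only genotype means were used, and leaving out a library was not possible for the same reason. Differences between pools are therefore not measured, and the fewest counts lie behind *Gsta2*, *Mgst2* and *Lpo*.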

Other observations

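A list of 7 genes read as responses to ovarian hormones had 4 genes higher in *Foxo1d/d* and 1 lower, where 5.43% and 3.51% of all genes were called. The list mixes hormones, since the lactoferrin gene *Ltf* is induced by estrogen, and it gives no measure of the progesterone response alone. *Ltf* had mean counts of 559 and 1885 (log2 ratio 1.69), *Areg*, an EGF-family ligand, 0.71 and *Greb1* 0.62. *Ihh*, the epithelial hedgehog ligand, had 0.60, as near the log2 threshold of 0.58 as *Gsr*, and a shift of -0.02 by either other scaling ends its call. *Calca*, calcitonin, had -1.24 and *Pgr* 0.20.

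Of the other FOXO genes, *Foxo3* had a log2 ratio of -0.41, *Foxo4* -0.13 and *Foxo6*, with mean counts of 24.7 and 31.3, 0.27.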
